A study of Mus musculus with 12 samples.

Results

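The 10 genes described here are outputs and feedback parts of the circadian clock: Npas2, Nfil3, Per1, Per2, Per3, Cry1, Nr1d1, Nr1d2, Dbp and Tef. They were taken by symbol from a table of 55891 genes, each symbol matched 1 row, and 9 of the 10 passed the filter on low values that 12605 genes passed. The filter asked for at least 1 TPM (a transcript level scaled to gene length and to a fixed library total) in at least 6 of 12 libraries, and Per3 did not reach it. The libraries were made from ileal mucosal scrapings of 12 mice at baseline, the scraped lining of the last part of the small intestine, with 1 library per mouse. The labels give 2 genotypes, Erbb3-FF (6 mice) and ERBB3-dIE (6 mice), called after the neuregulin receptor gene Erbb3. Litter A held 4 Erbb3-FF mice (3 to 6) and 3 ERBB3-dIE mice (4 to 6), and litter B held 2 Erbb3-FF mice (1 and 2) and 3 ERBB3-dIE mice (1 to 3). The sources used here do not give the alleles, the driver of any deletion, age, sex or the clock time of collection, so clock time cannot be told apart from litter or genotype.

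In the mammalian clock the proteins CLOCK or NPAS2 pair with BMAL1 and switch on genes through E-boxes, short DNA elements in promoters and enhancers. Among their targets are the Per and Cry genes, whose proteins repress the same pair, the Nr1d genes, whose REV-ERB proteins repress Bmal1 and Npas2, and Dbp and Tef, activators that bind D-boxes, where the repressor encoded by Nfil3 competes with them. In the intestine this loop runs in epithelial cells, follows feeding time, and reaches digestion, transport and lipid uptake.

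Depth per library is unknown, since TPM keeps no read totals. Between 12344 and 13364 genes reached 1 TPM per library. Gene-level Erbb3 was at 117 ± 23.7 TPM (Erbb3-FF) and 142 ± 39.9 TPM (ERBB3-dIE; SD, n = 6 each) and so gave no check of the labels. All 8 markers of ileal epithelium were found above the filter. Erbb3-FF mouse 3 stood apart from its litter: its summed epithelial markers were at 54555 TPM, against 12235 to 17416 TPM in the other litter A mice and 32905 to 44322 TPM in litter B. Fabp6 was the largest part of this sum, at 45972 TPM in that mouse, 6460 to 10690 TPM in the other litter A mice and 27010 to 36208 TPM in litter B. Krt8, Krt20 and Cdh17 of that mouse were within the range of the other litter A mice, and the remaining markers were above it. The calls by litter and the correlations within litter A are given with and without it.

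Promoter windows of 250 bases before the gene start are shown for the members that the results turn on: Cry1, which was near a single low level in 3 mice, Nr1d1, Tef and Dbp, which varied together, and Npas2 and Nfil3, which differed between genotypes. The sequences are from RefSeq on build GRCm38.p6, read in the direction of the gene. The expression table itself was made on GRCm39, so these coordinates are not those of its build. Of the members 9 had an entry, with 11 windows in all, and the entry for Per2 was missing. Capitals mark an E-box (CACGTG), a close variant of it (CACGTT) or the core of a REV-ERB and ROR element (TAGGTCA), searched on both strands and found without overlap.
Cry1 (chr10:85185055-85185304, minus strand): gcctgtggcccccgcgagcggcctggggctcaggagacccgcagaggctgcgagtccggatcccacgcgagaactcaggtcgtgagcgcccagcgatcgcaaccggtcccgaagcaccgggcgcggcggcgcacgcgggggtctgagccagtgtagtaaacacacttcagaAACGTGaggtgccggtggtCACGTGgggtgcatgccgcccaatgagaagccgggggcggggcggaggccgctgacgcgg
Nr1d1 (chr11:98775378-98775627, minus strand): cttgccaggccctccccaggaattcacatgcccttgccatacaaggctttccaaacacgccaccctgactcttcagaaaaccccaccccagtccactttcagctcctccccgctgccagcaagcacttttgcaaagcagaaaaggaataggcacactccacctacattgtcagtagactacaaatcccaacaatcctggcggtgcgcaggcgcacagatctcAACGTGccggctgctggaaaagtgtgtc
Tef (chr15:81802423-81802672, plus strand): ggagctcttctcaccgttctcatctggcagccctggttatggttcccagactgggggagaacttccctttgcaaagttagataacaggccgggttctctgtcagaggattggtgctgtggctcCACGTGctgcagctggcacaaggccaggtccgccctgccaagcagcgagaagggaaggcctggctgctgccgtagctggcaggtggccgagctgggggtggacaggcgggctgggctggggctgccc
Dbp (chr7:45704997-45705246, plus strand): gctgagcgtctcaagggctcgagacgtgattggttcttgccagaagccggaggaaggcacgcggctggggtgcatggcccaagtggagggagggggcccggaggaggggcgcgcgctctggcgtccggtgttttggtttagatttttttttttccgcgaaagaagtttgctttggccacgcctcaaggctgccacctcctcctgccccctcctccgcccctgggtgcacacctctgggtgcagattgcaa
Npas2 (chr1:39194022-39194271, plus strand): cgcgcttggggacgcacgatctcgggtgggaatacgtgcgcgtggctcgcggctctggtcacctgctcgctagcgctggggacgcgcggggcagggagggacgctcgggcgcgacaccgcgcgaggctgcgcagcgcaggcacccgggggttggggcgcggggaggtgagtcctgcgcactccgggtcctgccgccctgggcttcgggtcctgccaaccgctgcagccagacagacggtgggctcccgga
Nfil3 (chr13:52981040-52981289, minus strand): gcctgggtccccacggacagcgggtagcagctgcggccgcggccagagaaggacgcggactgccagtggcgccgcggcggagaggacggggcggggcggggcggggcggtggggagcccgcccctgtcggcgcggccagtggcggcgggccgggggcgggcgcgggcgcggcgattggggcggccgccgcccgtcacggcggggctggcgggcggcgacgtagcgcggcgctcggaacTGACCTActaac

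The Cry1 window held 1 E-box, 60 bases before the start, and 1 variant, 79 bases before it, and the Nr1d1 window held 1 variant. The E-box was in the windows of Cry1, Per1 and Tef (3 of 9 members), and among all annotated genes 6.86% had it in such a window. The variant was in those of Cry1 and Nr1d1 (2 of 9 members), and 4.496% of all genes had it. The REV-ERB and ROR core was in the Nfil3 window, and 2.55% of all genes had it. The D-box, searched as TTATGTAA or TTACGTAA, was in the Per3 window alone among the members, at 2 places, and in 1.095% of all genes. A match describes the letters of these windows and says nothing of a bound factor.

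Levels are set side by side between genes in TPM, which is scaled to length. Cry1 had the highest mean TPM of the members, at 55.9 ± 35.6 TPM over 12 mice (SD), then Nr1d1 (25.7 ± 12.2), Nfil3 (15.4 ± 6.02), Npas2 (14.5 ± 4.06), Nr1d2 (10.1 ± 4.16) and Tef (7.66 ± 4.28). Per2 (3.90 ± 1.17), Per1 (3.05 ± 1.00), Dbp (2.80 ± 2.31) and Per3 (0.935 ± 0.273) were low. Of the neighbours in this order only Npas2 and Nr1d2 were farther apart than the larger of their SDs. Cry1 was above Nr1d1 in 8 of 12 libraries. By the authors' mean normalized count, which is not scaled to length, Cry1 (405) was below Nr1d1 (743), Npas2 (686) and Nr1d2 (431). The part of transcript length in the TPM of Cry1 was not tested. The range from mouse to mouse was widest for Dbp, with a ratio of 26.9 between the highest and the lowest mouse, followed by Cry1 (15.7), Tef (11.04) and Nr1d1 (9.83). It was narrowest for Npas2 (2.26) and Per3 (2.51).

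**Figure D1:**
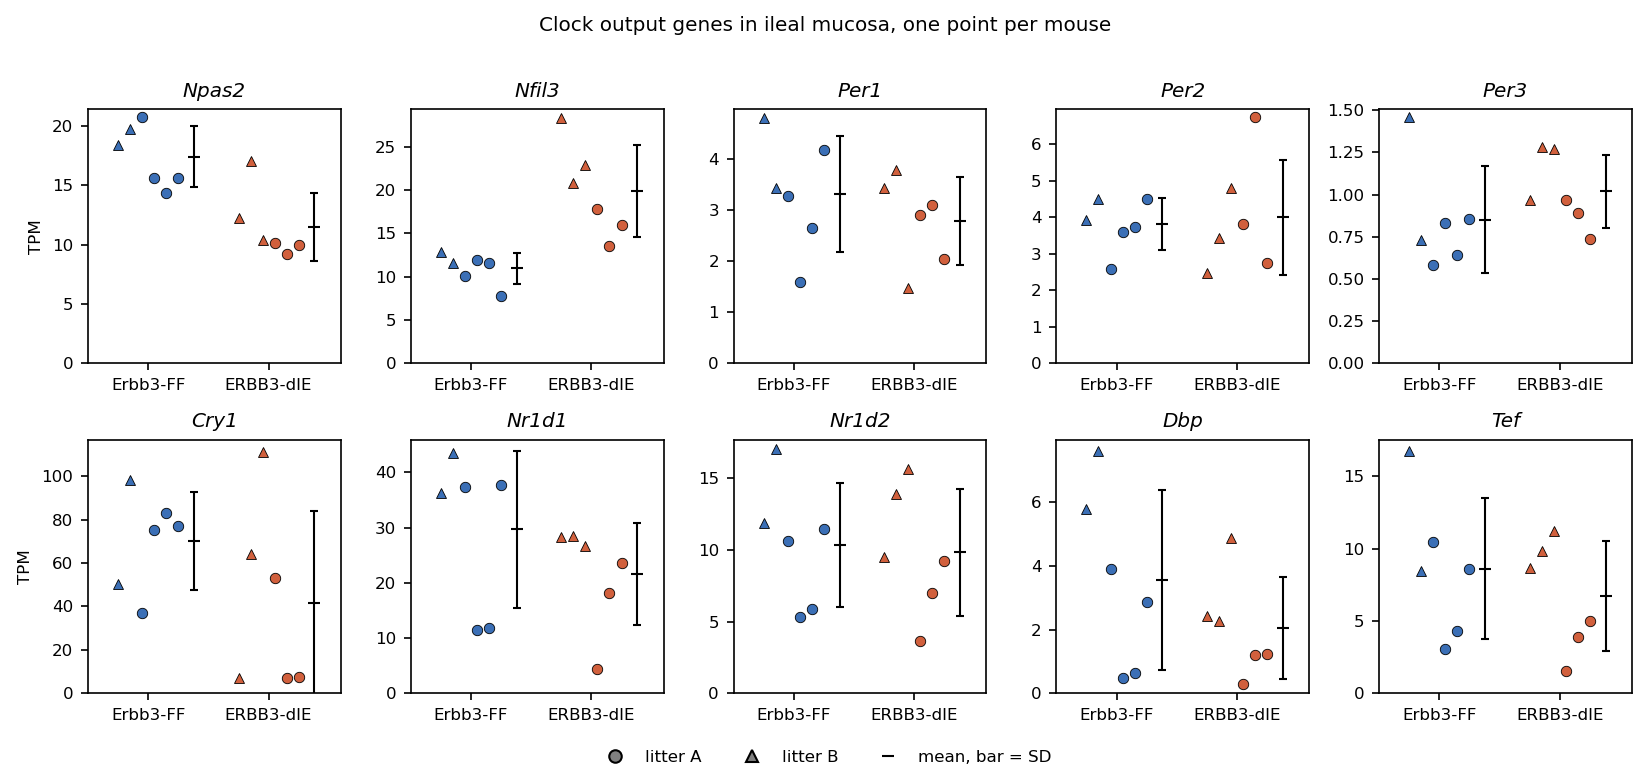
Level of each of the 10 genes in TPM (vertical axes, from 0) in Erbb3-FF and ERBB3-dIE mice, 1 point per mouse, circles for litter A and triangles for litter B, with the mean and SD beside each group (the lower SD bar of Cry1 in ERBB3-dIE is cut at 0). Nfil3 does not overlap between genotypes, and Cry1 is near 7 TPM in 3 ERBB3-dIE mice.

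The first comparison is between the genotypes. Of the 9 tested members 1 fell and 1 rose in ERBB3-dIE mice: Npas2, the activator that can stand in for CLOCK, fell to 66.0% of its Erbb3-FF mean, and Nfil3, the D-box repressor, rose to 182%. For comparison, the same test called 3.7% of all tested genes lower and 1.66% higher, 5.36% in all. Of the 9 members 2 had a positive log2 difference, against 49.9% of all tested genes. The median log2 difference of the members was −0.59, against −0.0007 over all tested genes. These shares and medians test no shift of the set. Nr1d1, Nr1d2, Dbp and Tef varied together across mice (below), and the members were chosen with earlier results of these data known.

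Npas2 (ENSMUSG00000026077) lay between 14.4 and 20.8 TPM in Erbb3-FF mice with a median of 17.0, and between 9.20 and 17.1 TPM in ERBB3-dIE mice with a median of 10.3. The groups overlapped through ERBB3-dIE mouse 2 alone, at 17.1 TPM, while the other 5 ERBB3-dIE mice were at 12.2 TPM or less and below every Erbb3-FF mouse. The means were 17.4 ± 2.60 and 11.5 ± 2.90 TPM (SD, n = 6 each). On the scale log2(TPM + 0.5) the fitted difference was −0.65 (SE 0.13, 95% interval −0.93 to −0.36, limma adjusted p = 0.0183), and the exact 2-sided permutation within litters gave p = 0.00571. Within each litter the genotypes did not overlap, with log2 differences of −0.72 in litter A and −0.54 in litter B. The call was lost without ERBB3-dIE mouse 5 (−0.62, limma adjusted p = 0.0521) and without a litter term (−0.60, limma adjusted p = 0.0677). In the authors' deposited table Npas2 has a log2 fold change of −0.59 (adjusted p = 0.00104).

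Nfil3 (ENSMUSG00000056749) lay between 7.75 and 12.8 TPM in Erbb3-FF mice with a median of 11.6, and between 13.5 and 28.3 TPM in ERBB3-dIE mice with a median of 19.3. Every ERBB3-dIE mouse was above every Erbb3-FF mouse, a pattern seen in the same direction for 1.02% of all tested genes. The means were 10.96 ± 1.80 and 19.9 ± 5.33 TPM (SD, n = 6 each). On the log2 scale the fitted difference was 0.74 (SE 0.14, 95% interval 0.44 to 1.03, limma adjusted p = 0.0133), and the exact 2-sided permutation within litters gave p = 0.00286, the smallest it can give. It was 0.59 within litter A and 0.94 within litter B, and the interaction with litter did not pass (0.35, 95% interval −0.24 to 0.94, limma adjusted p = 0.725). For Nfil3 the authors' deposited table lists 0.84 on the log2 scale (adjusted p = 3.81e-05).

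Both of these calls were lost with the mean log2 level of the 2 B cell genes that passed the filter as a further term. There Npas2 had a log2 difference of −0.62 (limma adjusted p = 0.133) and Nfil3 of 0.65 (limma adjusted p = 0.117). Both were also lost without ERBB3-dIE mice 4 and 5, the libraries highest in smooth muscle genes (−0.60 and 0.81, limma adjusted p = 0.145 and 0.0603). Of all tested genes 67 were called with the B cell term and 108 without those mice, against 676 in the reported fit. The 7 B cell markers summed to 4.52 to 299 TPM among Erbb3-FF and to 5.47 to 16.0 TPM among ERBB3-dIE mice. None of the 7 was at 0 in all libraries. The high sums were those of Erbb3-FF mice 1 to 3 (299, 138 and 118 TPM), with mice 4 to 6 of that genotype at 4.52 to 8.04 TPM. The B cell term therefore overlaps with genotype. Lymphocytes also make Nfil3, and the 8 T cell markers, of which 3 passed upward and none downward, summed to 91.5 to 193 TPM among Erbb3-FF and to 162 to 636 TPM among ERBB3-dIE mice. Of the 8 epithelial markers 3 passed downward. All 8 summed to 17085 to 54555 TPM among Erbb3-FF and to 12235 to 43382 TPM among ERBB3-dIE mice, with Fabp6 the largest part in every mouse. The part of T cells and of epithelium in the Nfil3 and Npas2 results was not tested. In a scraping, fewer cells of a type and less RNA per cell cannot be told apart.

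**Figure D2:**
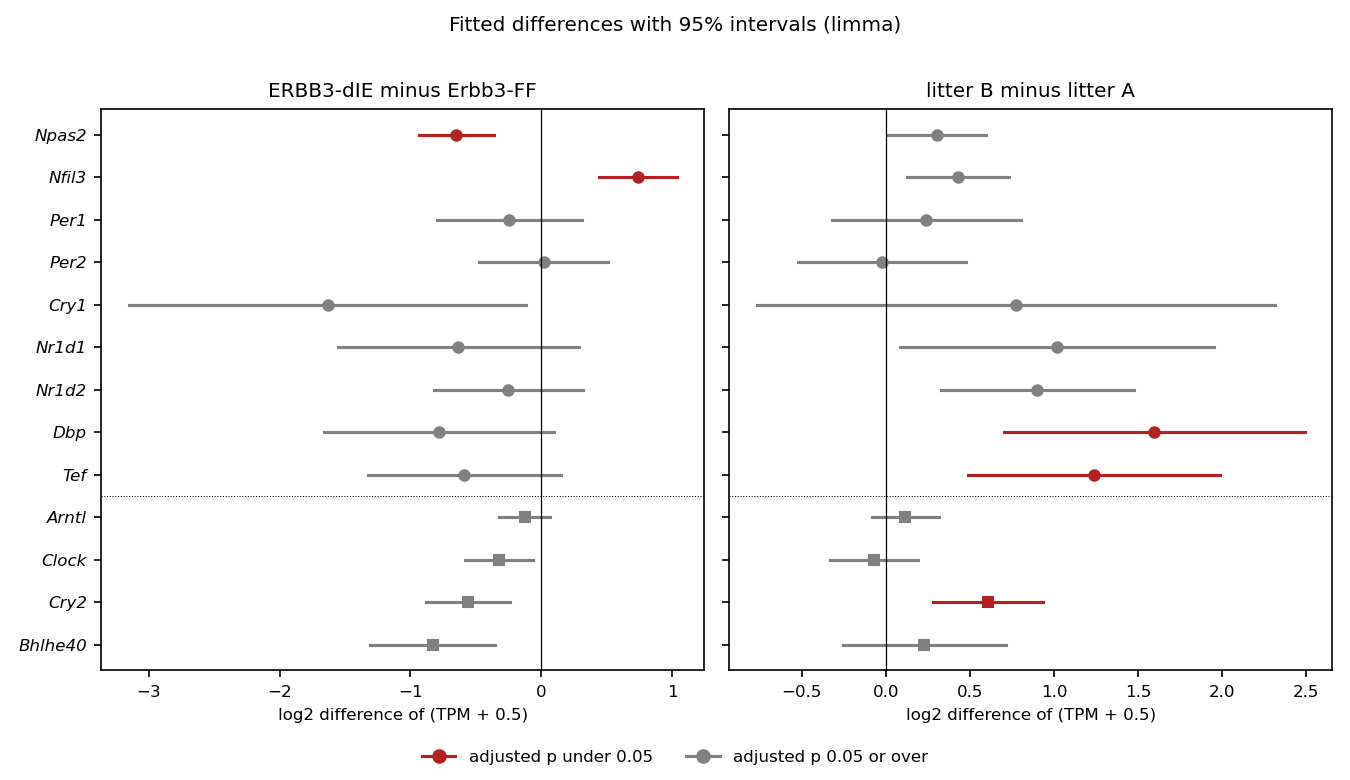
Fitted log2 differences of (TPM + 0.5) (horizontal axes) with 95% intervals from limma for the 9 tested members (circles, above the dotted line) and 4 other clock genes (squares, below it), for genotype on the left and litter on the right, in red where the adjusted p is under 0.05. Npas2 (−0.65) and Nfil3 (0.74) are the members past the threshold by genotype, and Dbp (1.596) and Tef (1.24) by litter.

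Cry1 (ENSMUSG00000020038), which encodes the cryptochrome that represses CLOCK and BMAL1, fell into separate levels among ERBB3-dIE mice. It was at 7.07 TPM in mouse 1, 7.21 TPM in mouse 5 and 7.38 TPM in mouse 6. The other ERBB3-dIE mice were at 64.2 (mouse 2), 111 (mouse 3) and 53.1 TPM (mouse 4). In Erbb3-FF mice 1 to 6 it was at 50.5, 98.4, 37.2, 75.01, 83.0 and 77.0 TPM. No mouse lay between 7.38 and 37.2 TPM, and the low mice were from both litters, 1 from litter B and 2 from litter A. The log2 difference between genotypes was −1.63 (SE 0.69, 95% interval −3.15 to −0.11) and did not pass (limma adjusted p = 0.195, exact 2-sided permutation within litters p = 0.0829). Since the mice fall into separate levels, the mean describes no mouse well, and no value of a correlation across mice is given for this gene.

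Cry1 lies on chromosome 10, as Erbb3 does, and its annotated neighbours (RefSeq, GRCm38.p6) were examined after its values had been seen. Mterf2, a mitochondrial transcription factor gene next to it on one side, was at 4.63, 3.27 and 5.79 TPM in the low mice 1, 5 and 6 and at 3.22, 4.10 and 3.70 TPM in mice 2, 3 and 4 of the same genotype. Pwp1, the nearest gene on the other side to reach 1 TPM, was at 6.07, 8.90 and 9.96 TPM in the low mice and at 4.58, 10.5 and 9.50 TPM in the others. Neither neighbour was divided as Cry1 was.

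**Figure D3:**
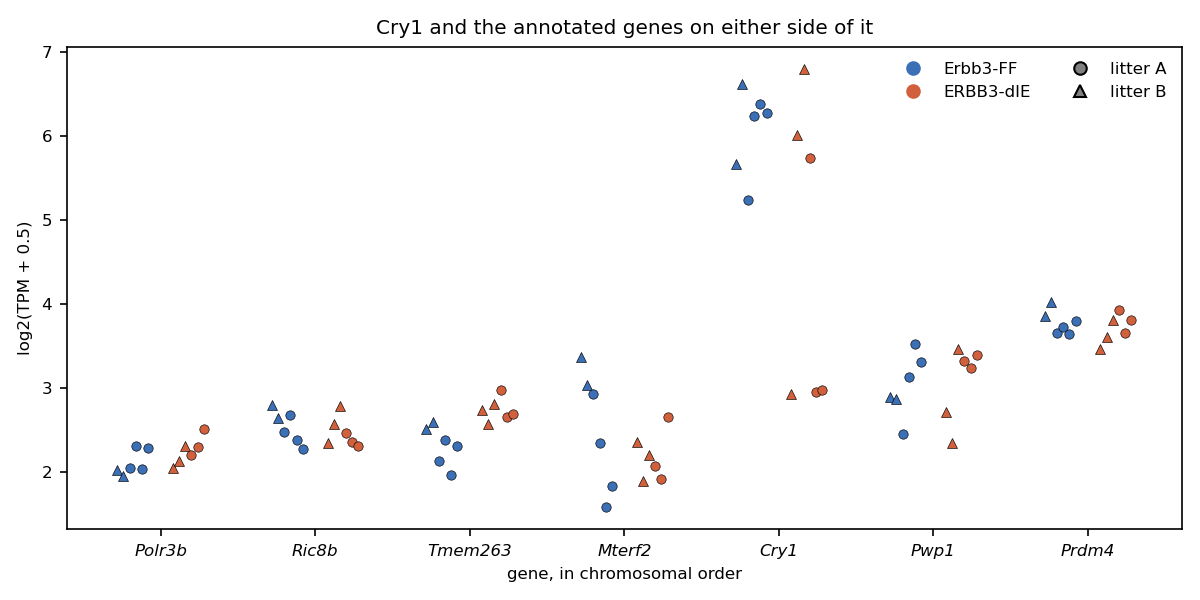
Level on the scale log2(TPM + 0.5) (vertical axis) of Cry1 and of the neighbouring protein-coding genes that reached 1 TPM in a library, in chromosomal order, 1 point per mouse, coloured by genotype, with circles for litter A and triangles for litter B. For Cry1 the 3 ERBB3-dIE mice at 7.07 to 7.38 TPM stand below all others, and no neighbour shows such a gap.

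The REV-ERB genes and the D-box activators varied widely within each genotype. Nr1d1, which encodes REV-ERBα, was at 11.4 to 43.6 TPM in Erbb3-FF (median 36.9) and at 4.43 to 28.5 TPM in the ERBB3-dIE group (median 25.1). Nr1d2, which encodes REV-ERBβ, was at 5.31 to 17.0 TPM (median 11.03) and at 3.62 to 15.6 TPM (median 9.34). Both overlapped between genotypes, and Nr1d1 in ERBB3-dIE mouse 4 was the lowest of all 12. Dbp was at 0.497 to 7.58 TPM in Erbb3-FF (median 3.38) and at 0.282 to 4.86 TPM in the ERBB3-dIE group (median 1.76), and Tef at 3.10 to 16.8 TPM (median 8.54) and at 1.52 to 11.2 TPM (median 6.85). The log2 differences were −0.63 for Nr1d1, −0.25 for Nr1d2, −0.78 for Dbp and −0.59 for Tef. None of these 4 passed (limma adjusted p = 0.420, 0.616, 0.290 and 0.344), and their intervals ran from −1.56 to 0.29, −0.82 to 0.32, −1.66 to 0.10 and −1.33 to 0.15, so lower and slightly higher levels both remain within them.

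The period genes, the classic negative limb of the loop, were low and did not differ beyond their spread. Per1, which also responds directly to glucocorticoids, was at 1.58 to 4.81 TPM in Erbb3-FF (median 3.35) and at 1.48 to 3.78 TPM in the ERBB3-dIE group (median 3.00), with a log2 difference of −0.24 (95% interval −0.80 to 0.31, limma adjusted p = 0.618). Per2 was at 2.57 to 4.51 TPM (median 3.83) and at 2.48 to 6.74 TPM (median 3.61), with a log2 difference of 0.02 (95% interval −0.47 to 0.51, limma adjusted p = 0.976). ERBB3-dIE mouse 5 had the highest Per2 level of all mice. Per3 was at 0.581 to 1.46 TPM (median 0.781) and at 0.739 to 1.28 TPM (median 0.967). It reached 1 TPM in 3 libraries, and in a fit of all genes without the filter its log2 difference was 0.13 (95% interval −0.23 to 0.50, limma adjusted p = 0.730).

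The labels also give the litter, and the second comparison is between litters. Dbp and Tef were higher in litter B, Dbp at 301% and Tef at 208% of the litter A mean. The same test called 7.16% of all tested genes higher in litter B and 1.4% lower, 8.55% in all. Of the 9 tested members 8 had a positive difference, against 55.6% of all tested genes, and the median was 0.77 against 0.05. As by genotype, these values test no shift of the set, since several members varied together.

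Dbp was at 5.78 and 7.58 TPM in Erbb3-FF and at 2.41, 2.28 and 4.86 TPM in ERBB3-dIE mice of litter B. In litter A it was at 3.89, 0.497, 0.653 and 2.87 TPM in Erbb3-FF mice 3 to 6 and at 0.282, 1.21 and 1.25 TPM in ERBB3-dIE mice 4 to 6. The litters overlapped through Erbb3-FF mice 3 and 6, and the other 5 mice of litter A were below every mouse of litter B. The log2 difference between litters was 1.596 (SE 0.41, 95% interval 0.70 to 2.49, limma adjusted p = 0.0388). Tef was at 16.8 and 8.46 TPM in Erbb3-FF and at 8.66, 9.87 and 11.2 TPM in ERBB3-dIE mice of litter B. In litter A it was at 10.5, 3.10, 4.32 and 8.62 TPM in Erbb3-FF mice and at 1.52, 3.93 and 5.03 TPM in ERBB3-dIE mice. The same mice, Erbb3-FF 3 and 6, reached the litter B range, and the log2 difference was 1.24 (SE 0.34, 95% interval 0.49 to 1.99, limma adjusted p = 0.0471).

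Both litter calls were close to the threshold and were lost in 11 of the 12 fits without 1 library (limma adjusted p up to 0.0906 for Dbp and 0.109 for Tef), with log2 differences over the 12 fits of 1.43 to 1.75 for Dbp and 1.00 to 1.47 for Tef. Without Erbb3-FF mouse 3 they were 1.75 and 1.37 (limma adjusted p = 0.00871 and 0.0119), and Nr1d2 (0.96, limma adjusted p = 0.0242) and Npas2 (0.36, limma adjusted p = 0.0471) passed as well. That mouse was left out for standing apart from litter A toward litter B, so larger litter differences without it are no separate support. In that fit 24.3% of all tested genes were called by litter and 15.7% were higher in litter B, so the 4 members called there stand beside a larger background. With all 12 libraries Nr1d2 had a difference of 0.90 (limma adjusted p = 0.0554), Nr1d1 of 1.02 (limma adjusted p = 0.140) and Nfil3 of 0.43 (limma adjusted p = 0.0725). Npas2 (0.31), Cry1 (0.77), Per1 (0.24) and Per2 (−0.02) had limma adjusted p-values from 0.151 to 0.959. The 9 smooth muscle genes summed to 69.8 to 179 TPM in litter A and to 50.4 to 96.7 TPM in litter B, ranges that overlap. The highest sums were those of ERBB3-dIE mice 4 and 5 (179 and 161 TPM). Among Erbb3-FF mice litter B (88.4 and 96.7 TPM) lay within litter A (69.8 to 114 TPM). Of the 7 tested smooth muscle genes 1 was lower in litter B and 0 higher, with a median log2 difference of −1.40. Of all tested genes 1.4% were lower. With the mean log2 level of these 7 tested genes, not the sum, as a further term Dbp had a difference of 1.36 and Tef of 0.88 (limma adjusted p = 0.275 and 0.332). In that fit no gene of all tested passed by litter.

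**Figure D4:**
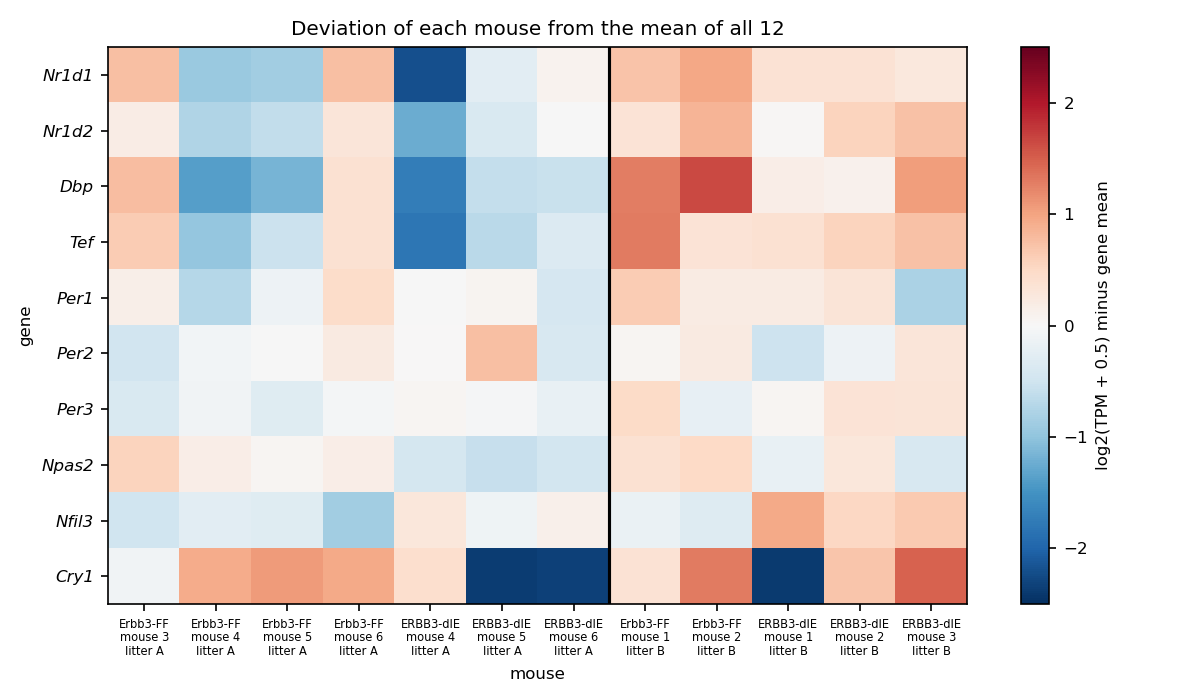
Deviation of each mouse (columns, by litter and genotype) from the mean of all 12 for each of the 10 genes (rows), on the scale log2(TPM + 0.5), red for higher and blue for lower. Nr1d1, Nr1d2, Dbp and Tef share their lowest mouse, ERBB3-dIE mouse 4. Erbb3-FF mouse 2 is highest in Nr1d1, Nr1d2 and Dbp, but Tef is highest in Erbb3-FF mouse 1. Cry1 is low in ERBB3-dIE mice 1, 5 and 6.

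The genotype difference of no member was shown to differ between litters. The interaction was called for none of the 9 tested members and for 0% of all 12605 tested genes by limma, where 1174 genes (9.31%) had an unadjusted p under 0.05, none of them a member. The intervals were wide, from −1.91 to 4.39 for Cry1 and from −0.41 to 0.78 for Npas2.

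Across mice, the levels of Nr1d1, Nr1d2, Dbp and Tef varied together. All 6 pairs among these genes had a Pearson r of 0.88 to 0.92 over 12 mice on the log2 scale. They were the pairs with an adjusted permutation p under 0.05 among all 45 pairs of members. The permutations shuffled all 12 mice across litters and genotypes. A litter or genotype difference shared by a pair therefore also lowers its p-value, and no p-value was computed within litter A. For Nr1d1 and Dbp r was 0.89 (permutation p = 1e-05, the smallest that 100000 resamples can give, adjusted over the 45 pairs p = 0.00045) and Spearman's rho was 0.88 (permutation p = 0.00034, adjusted p = 0.00765). For Nr1d2 and Dbp r was 0.92 (permutation p = 3e-05, adjusted p = 0.000675) and rho was 0.91 (permutation p = 9e-05, adjusted p = 0.00405). The weakest by rank was the pair Nr1d1 and Tef, with r = 0.90 (permutation p = 0.00014, adjusted p = 0.00126) and rho = 0.69 (permutation p = 0.0172, adjusted p = 0.113). Within litter A, with 7 mice, the 6 values of r were 0.93 to 0.99, and 0.92 to 0.99 with the 6 mice left without Erbb3-FF mouse 3. Litter B held too few mice for a value of its own. Without the 2 mice farthest from the median of the first gene they were 0.72 to 0.87.

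**Figure D5:**
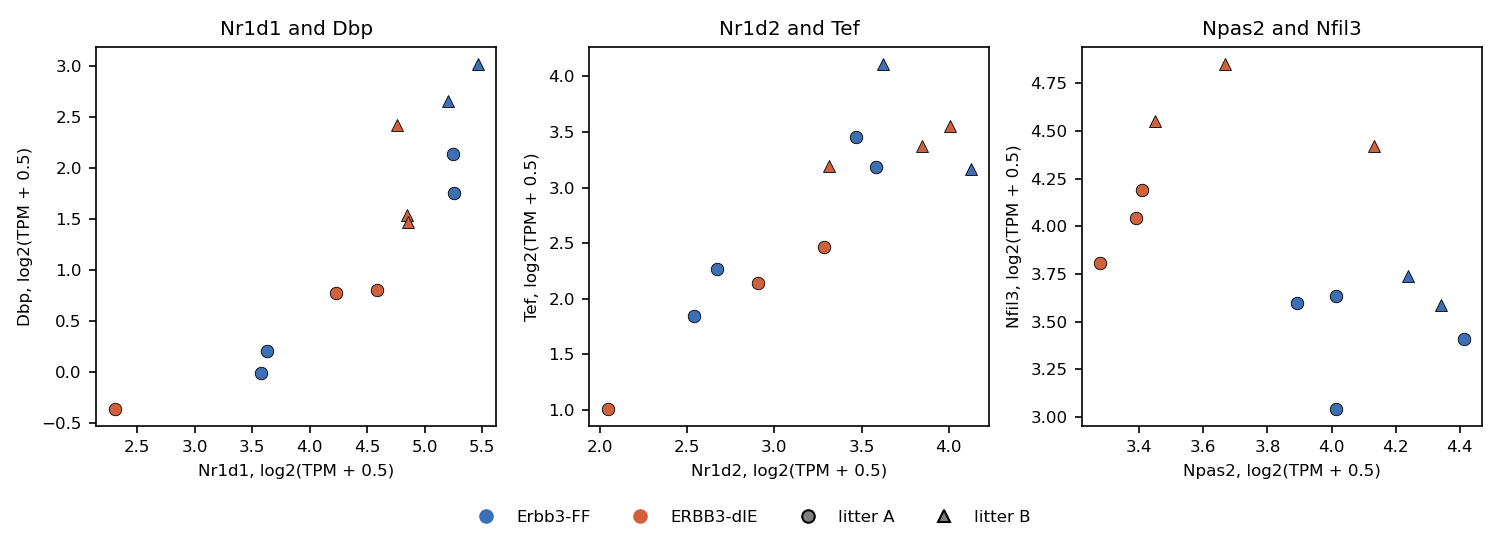
Levels on the scale log2(TPM + 0.5) of pairs of members (both axes), 1 point per mouse, blue for Erbb3-FF, red-orange for ERBB3-dIE, circles for litter A and triangles for litter B. Dbp follows Nr1d1 (r = 0.89) and Tef follows Nr1d2 (r = 0.88) across genotypes and litters, and in the plot of Npas2 and Nfil3 the genotypes do not overlap along the Nfil3 axis but overlap through 1 mouse along that of Npas2.

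No pair of a period gene with a gene of that group passed, which with 12 mice does not show that they vary apart. The r of Per2 and Per3 with those genes were −0.12 to 0.37. For Per1 with Dbp r was 0.38 (permutation p = 0.230, adjusted p = 0.577). It was 0.59 in litter A, 0.58 there without Erbb3-FF mouse 3, and 0.63 without the 2 farthest mice. By rank, Per1 with Nr1d1 was close to Nr1d1 with Tef (rho = 0.69). The r of Per1 with Tef was 0.40 (permutation p = 0.199, adjusted p = 0.560) and with Nr1d1 also 0.40 (permutation p = 0.199, adjusted p = 0.560), and rho was 0.44 (permutation p = 0.156, adjusted p = 0.413) and 0.68 (permutation p = 0.0181, adjusted p = 0.113). Within litter A these r were 0.45 and 0.39 (0.37 and 0.31 without Erbb3-FF mouse 3), and without the 2 farthest mice 0.66 and 0.48. For Npas2 with Dbp r was 0.51 (permutation p = 0.0909, adjusted p = 0.383) and rho 0.55 (permutation p = 0.0665, adjusted p = 0.299), with an r of 0.54 in litter A, 0.17 there without Erbb3-FF mouse 3, and 0.47 without the 2 farthest mice. Outside the members, the genes most like Dbp over 12 libraries were Lnx1 (r = 0.97), a ubiquitin ligase gene, Snapc2 (0.95) and Tsg101 (0.94), an endosomal sorting gene. The most opposite were the DNA replication gene Gins2 (r = −0.90), Trim41 (−0.89) and the pseudogene Cbx3-ps8 (−0.88). Those most like Npas2 were Fhl1 (r = 0.96), Wwc1 (0.95) and B4galt6 (0.95), and the most opposite were Prorp (r = −0.95), Slc66a2 (−0.94) and Ergic1 (−0.93). These values describe the same 12 libraries, which share genotype and litter.

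Among 26 further clock genes (activators, repressors, kinases and ubiquitin ligases) 20 were tested, of which 1 was lower and none higher in ERBB3-dIE mice, with a median log2 difference of −0.23. Of all tested genes 3.7% were lower and 1.66% higher. Bmal1 (listed as Arntl), the partner of NPAS2 and CLOCK, was at 19.6 to 26.7 TPM over all mice (−0.13, limma adjusted p = 0.450). Clock was at 9.91 to 12.6 TPM among Erbb3-FF and at 6.71 to 9.79 TPM among ERBB3-dIE mice, ranges that did not overlap (either direction 2.44% of all tested genes), but its difference of −0.32 did not pass (limma adjusted p = 0.141). The repressor genes Cry2 (−0.56, limma adjusted p = 0.0507) and Bhlhe40 (−0.83, limma adjusted p = 0.0508) were just short of the threshold. Bhlhe40 was at 16.3 to 20.6 TPM in all ERBB3-dIE mice and at 19.4 to 52.8 TPM in Erbb3-FF mice. Hlf, the third D-box activator gene of its family, Ciart, Bhlhe41 and Rora had means of 0.186, 0.468, 0.218 and 0.198 TPM and were not tested.

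By litter 3 of these 20 genes were higher in litter B and none lower, against 7.16% and 1.4% of all tested genes. Cry2 was among them (0.61, limma adjusted p = 0.0344), while Bmal1 (0.12, limma adjusted p = 0.416), Clock (−0.07, limma adjusted p = 0.730) and Bhlhe40 (0.23, limma adjusted p = 0.519) did not pass. The median log2 difference of the 20 was 0.01. Without Erbb3-FF mouse 3, where 24.3% of all tested genes were called and 15.7% were higher, the counts were 4 higher and 1 lower. Cry2 was then at 0.64 (limma adjusted p = 0.0121). The lower gene, named after its value was seen, was Prkaa2, a catalytic subunit gene of the energy sensor AMPK (−0.64, limma adjusted p = 0.0146).

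A list of 26 genes that follow the clock in some tissues held nutrient transporter genes such as Slc2a2, Slc2a5 and Slc15a1, so it does not stand for general clock output. Of the 26 genes 22 were tested, and 2 were lower and none higher in ERBB3-dIE mice (median −0.31). The shares of all tested genes were 3.7% and 1.66%. Abcb1a, a drug efflux pump gene, fell from 216 ± 63.8 to 110 ± 20.7 TPM (SD, n = 6 each; log2 difference −1.004, limma adjusted p = 0.0104), and the peptide transporter gene Slc15a1 fell from 157 ± 51.4 to 83.3 ± 46.2 TPM (−1.22, limma adjusted p = 0.0179). By litter 4 were higher in litter B and none lower, against 7.16% and 1.4% of all tested genes. They were the glucose and fructose transporter gene Slc2a2 (2.39), Slc2a5 (1.57), Tsc22d3 (1.27) and Slc15a1 (1.05), with limma adjusted p-values of 0.0188, 0.0437, 0.0153 and 0.0298. Without Erbb3-FF mouse 3 these genes were at 2.63, 1.78, 1.39 and 1.16 (limma adjusted p at most 0.00438), and 7 genes of the list were higher and 3 lower. In that fit 24.3% of all tested genes were called by litter and 15.7% were higher in litter B. Of 19 glucocorticoid-responsive genes, a list that holds Per1, 17 were tested. Sgk1, a kinase gene of sodium transport, fell from 219 ± 57.2 to 88.6 ± 33.8 TPM (−1.40, limma adjusted p = 0.0109), Errfi1, a feedback inhibitor of ErbB receptors, fell (−0.73, limma adjusted p = 0.0298), and the phosphatase gene Dusp1 rose (0.58, limma adjusted p = 0.0180). By litter, Tsc22d3, a glucocorticoid-induced gene, was higher in litter B (1.27, limma adjusted p = 0.0153) and Tat, encoding tyrosine aminotransferase, lower (−1.80, limma adjusted p = 0.0176). Without Erbb3-FF mouse 3 they were at 1.39 and −1.85 (limma adjusted p = 0.000329 and 0.00444), and 2 genes of this list were higher and 2 lower. The median log2 differences of this list were −0.15 by genotype and 0.13 by litter, and the same shares of all tested genes stand beside its counts.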

How the data were processed

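mRNA of 12 ileal scrapings was read on a NextSeq as single-end reads of 75 bases, per the labels' protocols. CASAVA, Salmon 1.10.0, DESeq2 and build GRCm39 are named in the submitters' processing notes, and the annotation release is not given in the sources used here. The authors deposited TPM per library and, per the file headers, their own test: the mean normalized count (a signal), the log2 fold change and its error, the Wald score and p-values. Positive fold changes of the authors mean higher in ERBB3-dIE.

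TPM are not counts, so log2(TPM + 0.5) was fitted with limma 3.58.1 in R 4.3.3 (lmFit, eBayes with a variance trend), with litter and genotype as terms, over the 12605 genes that reached 1 TPM in 6 or more libraries. The adjustment was Benjamini-Hochberg over all of them, threshold 0.05. Log2 differences understate the change of low genes such as Dbp. Exact permutation tests relabelled genotype within litters (350 relabellings), and correlations used 100000 permutations. Libraries correlated at 0.878 to 0.955, so none was counted as a copy. The members and lists were chosen with earlier results of these data known. Named genes were all members, fixed clock genes, per list up to 4 genes past the threshold or the smallest p, and the 3 most and least like Dbp and Npas2. Those for Nfil3 were added later, and a few genes that the rule names are not reported here. Alternatives covered pseudocount, filter, scaling, variance, weights, covariates, litters and single libraries. Figures were drawn with matplotlib 3.10.9.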

Additional observations from a re-analysis of the deposited data

Results flagged for a closer look

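Nr1d1 in ERBB3-dIE mouse 4 was at 4.43 TPM, far below the other 5 mice of its genotype, which lay between 18.2 and 28.5 TPM. Its gap to the next mouse was 0.754 of the group's range on the log2 scale, above Dixon's 95% value of 0.625 for 6 samples. This was the sole such library among 20 combinations of member and genotype, and chance gives about 1 in 20. The same mouse had the lowest Nr1d2 (3.62 TPM), Dbp (0.282 TPM) and Tef (1.52 TPM), and with ERBB3-dIE mouse 5 the highest sums of smooth muscle markers (179 and 161 TPM, others at most 114 TPM). The part of that tissue in the low values was not tested.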

How the results depend on the processing

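The Nfil3 difference kept its direction under every alternative run and its call in 12 of 12 fits without 1 library (0.68 to 0.81), and Npas2 kept its direction throughout (−0.73 to −0.58 without 1 library). With the design as reported, the test called 676 genes and 2 members by genotype, 1078 and 2 by litter, and 0 genes by interaction. Depth is unknown, so its part in the precision of any member was not tested. Why the counts below differ was not tested, beyond fewer samples or terms in the fit.

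By genotype, the genes called were 350 with no filter, 1045 after rescaling without mitochondrial and ribosomal sequence, 1080 with library weights, 243 with no litter term, 67 with B cell genes as a term, 6 in litter A alone, 15 in litter B alone, 108 without the 2 libraries highest in smooth muscle genes and 1950 in the authors' deposited table. Members called were 1 with no litter term and 0 with the B cell term, in either litter alone and without those 2 libraries. Other clock genes called, 1 as reported, were 3 with at least 1 TPM in all libraries and with library weights, 4 after rescaling, 2 with median-of-ratios scaling, quantile normalisation, robust variance or a smooth muscle term, and 0 with no filter, no litter term, the B cell term, either litter alone or without those 2 libraries.

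By litter, the genes called were 245 with no filter, 708 after rescaling, 2750 with library weights, 0 with the smooth muscle term and without the 2 libraries highest in smooth muscle genes, 5 with the B cell term and 7 without the 2 libraries rich in ribosomal sequence. Members called were 1 with a pseudocount of 0.1 or median-of-ratios scaling and 0 with no filter, after rescaling, with either cell term or without either pair of libraries. Other clock genes called, 3 as reported, were 1 with no filter and 0 with either cell term or without either pair. By interaction, 53 genes were called with no filter, 7 with at least 1 TPM in all libraries, 12 with library weights and 4 with the B cell term.

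Mouse numbers did not pair the samples (same-numbered deviations correlated at −0.39 to 0.07). With the mouse number as a replicate block beside litter, 216 genes, 0 members and 0 other clock genes were called by genotype, 0, 0 and 0 by litter and 6 genes by interaction. Only number 3 held both litters, with Erbb3-FF mouse 3, which stood apart, in litter A and ERBB3-dIE mouse 3 in litter B. Litter under the block rests on that pair, so its counts and signs by litter do not test the litter differences. Under the block, Per2 by genotype was −0.14. The litter differences were −0.44 for Npas2, −0.88 for Per1, 0.93 for Per2 and −0.0196 for Nr1d1. The interactions were −0.0317 for Nr1d1 and −0.11 for Nr1d2, and all of these values were reversed.

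Also reversed was Per2 by genotype: −0.0043 after rescaling, −0.0643 with library weights, −0.0069 with the smooth muscle term, −0.25 in litter B and −0.28 without the 2 smooth muscle libraries. Per2 by litter was 0.0083 with quantile normalisation, 0.32 with the smooth muscle term, 0.0212 without the 2 ribosomal libraries and 0.24 without the 2 smooth muscle libraries. Interactions with the smooth muscle term and without its 2 libraries were 0.10 and 0.0667 for Per2, −0.80 and −0.67 for Nr1d1 and −0.43 and −0.37 for Nr1d2. That of Dbp was 1.05 with the B cell term and that of Tef −0.04 without the 2 smooth muscle libraries.

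Without 1 library at a time, the genes called by genotype were 303 to 797, members 1 to 2 and other clock genes 0 to 3. By litter they were 101 to 3059, 0 to 4 and 1 to 5, with 3059 genes without Erbb3-FF mouse 3, and by interaction 0 to 36 genes. Reversals in these fits were in Per2 by genotype (−0.18 to 0.13) and by litter (−0.12 to 0.15), and in the interactions of Npas2 (−0.0062 to 0.34), Nr1d1 (−0.49 to 0.65) and Nr1d2 (−0.18 to 0.44).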

Other observations

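Genes most like Nfil3, chosen after its values had been seen, included interferon-inducible GTPase genes. Over 12 libraries on the log2 scale the closest were Ifi47 (r = 0.93), Sap30 (0.93) and Gbp8 (0.92), and the most opposite were Lamb3 (r = −0.92), a laminin chain gene of the epithelial basement membrane, Cutal (−0.91) and Camk2d (−0.90). Ifi47 was at 22.0 to 31.9 TPM in Erbb3-FF and at 28.6 to 93.1 TPM in ERBB3-dIE mice, and Lamb3 at 40.9 to 68.1 and at 11.2 to 26.0 TPM. These values describe the 12 libraries, which share genotype and litter, and no test was made on genes chosen in this way.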
